A study of Mus musculus with 16 samples.

Results

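The comparison described here is between newborn mouse lungs that breathed only filtered air, taken at different times after the same handling. Its members are all 8 filtered air samples of a study of 16, chosen by their labels: 4 lungs taken 6 h after the end of a 3 h air exposure and 4 taken 24 h after it. All were BALB/c mice, an inbred laboratory strain kept free of specific pathogens, and all were exposed at 3 days of age. The other 8 samples were pups that breathed ozone at 1000 ppb for 3 h, killed at the same 2 times. Each array measured RNA of 1 whole lung with a single dye on Agilent probes, so airway, alveolar, vascular, blood and immune cells were measured together. In such mixtures, fewer cells of a type and less RNA per cell cannot be told apart.

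Lungs of mice at this age leave the saccular stage, in which the air spaces are wide and their walls thick, and begin to form alveoli. New septa grow from the walls where contractile fibroblasts lay down elastin and other matrix, while the capillary bed expands and macrophages settle in the air spaces. Lung cells also carry a circadian clock, in which CLOCK and ARNTL switch on the Per, Cry and Nr1d genes, whose products then switch this activity off again. Relative to each exposure the collections lay 18 h apart, so the air lungs of the later time were older by that span. The hour of the day and the light schedule are not given in the sources used here, and whether the collections differed in phase of the day is not known.

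The times differed in more than age. Per the study's design text, each time point was a separate experiment with its own air littermates, and the files show that each time had its own 2 slides and its own scan day. Spots for the spike-in control RNA had a mean log10 signal of 3.01 to 3.15 on the air arrays of 6 h and of 0.60 to 1.21 on those of 24 h. The median background was 46 to 49 at 6 h and 34 to 34.5 at 24 h. The share of spots well above background was 65.9% to 72.4% at 6 h and 76.0% to 81.0% at 24 h. Time, litter, slide, scan day and labelling therefore cannot be told apart in any value below. Only 1 of the 4 air lungs at each time was male by its Y-linked genes. Among the ozone lungs, 2 of 4 at 6 h and 3 of 4 at 24 h were male.

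Levels are given as log2 of the background-corrected signal minus the 75th percentile of that array, so that 0 is the 75th percentile, and differences are 24 h minus 6 h on this log2 scale. A gene is said to have risen or fallen when its Benjamini-Hochberg adjusted p from limma was under 0.05. Between the times, 10737 of 21644 genes tested passed, which is 49.6%. Of these, 4611 rose (21.3% of genes tested) and 6126 fell (28.3%). With arrays scaled to their medians instead, which moved the median difference over all genes from 0.01 to -0.09, 2963 genes rose, and rises were 32.7% of calls in place of 42.9%. Of the 10822 bright genes, which were well above background on all 8 air arrays and above the median level, 67% passed, with 2761 risen (25.5%) and 4492 fallen (41.5%). The 4 values of 24 h all lay on 1 side of the 4 values of 6 h for 48.9% of genes, above in 22.5% and below in 26.4%. A count of members that changed has to be read against these shares, and 1915 genes (8.85%) changed by more than 2-fold, 815 of them up (3.77%) and 1100 down (5.08%). Between the 2 slides of 6 h, 257 genes passed (1.19%), and between those of 24 h, 207 (0.956%), so far fewer genes passed between slides of 1 time than between times. Slides of 1 time shared the experiment and the scan day, so these counts cannot show what litter, scan day or labelling added between times.

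Probe chemistry moved with the time difference. The median difference over all genes was 0.01, but it was -0.42 for the 650 genes whose probe held up to 33% G+C and 0.30 for the 1227 with over 45% to 50%. By brightness, it was 0.50 in the dimmest of 10 equal classes and -0.32 in the brightest. Of 4936 genes with exactly 2 probes, 64.6% had both differences of the same sign, and Pearson's r between the probes was 0.40 across genes, which are not independent replicates. For this reason many of the gene groups below, though not all, are given also after the G+C trend was removed from each array. This alternative was chosen after seeing the data, and under it 45.4% of genes passed (19.2% risen, 26.2% fallen). It left the brightness trend in place, with a median of 0.51 in the dimmest class and -0.34 in the brightest.

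**Figure D1:**
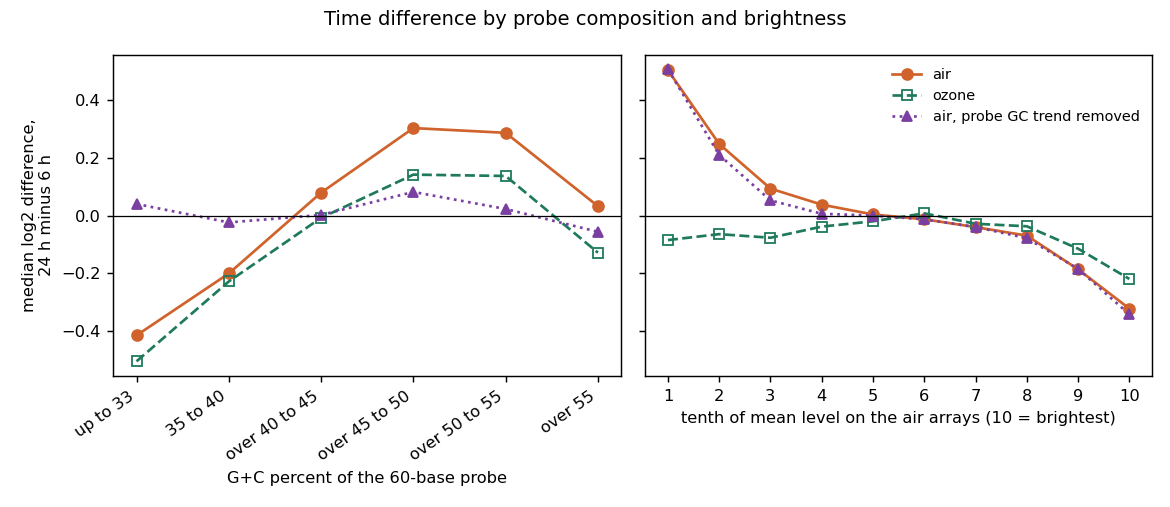
Median log2 difference, 24 h minus 6 h, of genes grouped by the G+C percent of their probe (left) and by their level on the air arrays (right, 10 equal classes from dim to bright), for the air lungs, the ozone lungs and the air lungs after removal of the G+C trend. The air median climbs from -0.42 at the lowest G+C to 0.30 at over 45% to 50%, and falls from 0.50 in the dimmest class to -0.32 in the brightest.

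Genes of the matrix and of contractile cells were among the clearest groups higher at 24 h. Of 22 genes of elastic fibre assembly, 16 rose and 1 fell, with a median of 0.64 (0.62 with the G+C trend removed). Of 32 collagens and collagen-modifying enzymes, 20 rose and 2 fell, with a median of 0.51 (0.42). Of 32 proteoglycans and matricellular proteins, 20 rose and 5 fell, with a median of 0.66 (0.52). Of 23 markers of smooth muscle and pericytes, 14 rose and 3 fell, with a median of 0.69 (0.72). Among their bright members the counts were 15 risen and 1 fallen of 19, 15 and 2 of 24, 18 and 4 of 26, and 13 and 3 of 20, in the same order.

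Eln encodes tropoelastin, the protein cross-linked into elastic fibres. Its levels were 2.33, 2.28, 1.61 and 2.12 at 6 h and 3.52, 3.41, 3.88 and 3.63 at 24 h. All 4 later lungs lay above all 4 earlier ones, and the rise was 1.52 ± 0.15 (SE, n = 4 per group, adjusted p = 2.61e-07), or 2.87-fold. The Eln probe lies on chromosome 5 from 135179129 to 135179188 (mm9, minus strand). Fbn2, a fibrillin of the microfibrils on which elastin is laid, went from -0.79 to -0.28 at 6 h to 0.80 to 1.19 at 24 h and rose by 1.58 ± 0.13 (adjusted p = 8.81e-08). Ltbp1, which binds latent TGF-beta into the matrix, rose by 1.07 ± 0.10 and Loxl2, an enzyme that cross-links collagen and elastin, by 1.28 ± 0.11. A second Loxl2 probe gave 1.47 and a second Ltbp1 probe 0.32. Efemp1 was the single member that fell, by 0.54.

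The basement membrane collagens Col4a1 and Col4a2 are neighbouring genes and both rose. Col4a1 levels were 3.70, 3.88, 3.34 and 3.53 at 6 h and 5.17, 4.99, 5.04 and 5.15 at 24 h, a rise of 1.48 ± 0.11 (adjusted p = 3.61e-08). Col4a2 rose by 1.72 ± 0.13 (adjusted p = 5.02e-08), and the second probes of these genes gave 1.85 and 1.89. By contrast, Col4a4 fell by 0.92 and Col4a5 by 0.36, both chains of other type IV collagens. Col6a2, a chain of the beaded filament collagen, went from -0.07, 0.05, -0.36 and -0.28 to 1.63, 1.53, 1.75 and 1.72. That rise of 1.82 ± 0.10 (adjusted p = 1e-08) had no overlap between the groups, but a second, dimmer Col6a2 probe gave only 0.01. Col12a1, a collagen found along fibril surfaces, rose by 1.38 ± 0.12, with a second probe at 1.67.

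Fn1 encodes fibronectin, an adhesive glycoprotein that cells pull into fibrils. Its levels were 2.29 to 2.61 at 6 h and 3.77 to 4.06 at 24 h, a rise of 1.42 ± 0.11 (adjusted p = 4.94e-08) that its other probes gave as 0.73 and 2.10. Thbs1, a matricellular protein that binds TGF-beta and CD36, rose by 1.38 ± 0.10, with 2 other probes between 1.91 and 1.95. Matn4, an adaptor of matrix filaments, rose by 1.32 ± 0.10 and Lama2, a laminin chain of muscle basement membranes, by 1.26 ± 0.11. Lama1 was well above background on no array of 6 h and on all 4 of 24 h, so it was at least 5.66-fold higher, the bright group's mean against the detection limit of the other arrays. The 5 members that fell were the small proteoglycans Lum and Dcn, the hyaluronan synthase Has2, the hyaluronan link protein Hapln1 and periostin, Postn. Lum fell by 1.59 ± 0.32 and Dcn by 1.17 ± 0.28, and Lum was spread widely at 6 h, from 0.77 to 2.50.

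Myh11, the myosin heavy chain of smooth muscle, was among the largest rises of all well-measured genes. Its levels were 1.37, 1.22, 0.50 and 0.95 at 6 h and 3.26, 3.06, 3.18 and 3.15 at 24 h, a rise of 2.15 ± 0.14 (adjusted p = 1.71e-08), or 4.43-fold. Neither group overlapped the other, and the lungs of 24 h lay closer together, with an SD of 0.08 against 0.38 at 6 h. Mylk, the kinase that starts smooth muscle contraction, rose by 1.13 ± 0.08, Smtn, an actin-binding protein of contractile smooth muscle, by 1.40 ± 0.10, and Des, the muscle intermediate filament, by 1.39 ± 0.11. Acta2, the actin of smooth muscle and myofibroblasts, rose less, by 0.84 ± 0.19 (adjusted p = 0.00109). Tagln, an actin-binding protein of the same cells, fell by 0.41 ± 0.10, but a second probe gave 0.30 and quantile normalization 0.09. Kcnj8, a potassium channel subunit of pericytes, and Gucy1b1, a subunit of the nitric oxide receptor, were the other members that fell.

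Markers of fibroblasts as a class did not move with them. Of 26 fibroblast and lipofibroblast genes, 4 rose and 8 fell, with a median of -0.03. Dpt, a matrix protein of adventitial fibroblasts, rose by 1.17 ± 0.14 and Pi16, another adventitial marker, by 1.00 ± 0.13. Mgp, an inhibitor of calcification, fell by 0.89 ± 0.14, and Inmt, a methyltransferase of lipofibroblasts, by 1.50 ± 0.27. Among 44 growth factor and morphogen genes, 21 rose and 12 fell, with a median of 0.23 that ranged from 0.12 with median scaling to 0.38 after cyclic loess. Foxf1, a transcription factor of lung mesenchyme and capillaries, went from -2.02 to -1.77 at 6 h to -0.41 to 0.11 at 24 h, a rise of 1.66 ± 0.12 (adjusted p = 2.52e-08). Tgfbi, a matrix protein induced by TGF-beta, rose by 1.43 ± 0.13 and Pdgfb, an endothelial signal to pericytes, by 1.41 ± 0.13, though a second Pdgfb probe gave 0.07. Id2, an inhibitor of helix-loop-helix factors, fell by 0.83 ± 0.08.

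Of 33 endothelial genes, 17 rose and 5 fell, with a median of 0.26 (0.29). That median was 0.58 after quantile normalization, 0.61 after cyclic loess and 0.15 with median scaling. Tie1, an endothelial receptor kinase, had levels of 0.28 to 0.78 at 6 h and 1.72 to 1.95 at 24 h, a rise of 1.35 ± 0.10 (adjusted p = 3.34e-08). Eng, a TGF-beta co-receptor of blood vessels, rose by 1.10 ± 0.08, Flt4, the VEGF-C receptor, by 1.75 ± 0.22, and Aplnr, the apelin receptor, by 0.84 ± 0.11. The 5 that fell were Emcn, Sox17, Cd34, Lyve1 and Prox1, by 0.64, 0.56, 0.50, 0.68 and 0.50. Of these, Cd34 was at 0.03 after quantile normalization, and the other probes of Sox17, at 0.13 to 0.99, and of Lyve1, at 0.35, had the opposite sign.

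**Figure D2:**
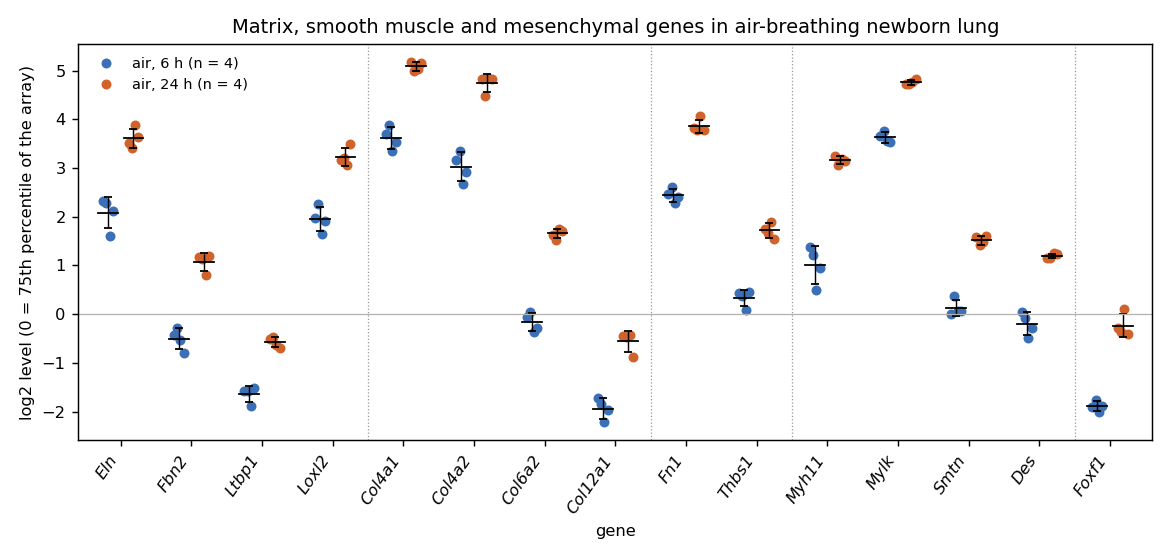
Log2 level of matrix, smooth muscle and mesenchymal genes in each air lung at 6 h and 24 h (points), with the mean (bar) and SD (whisker) of 4 lungs. For all 15 genes shown the 24 h lungs lie above the 6 h lungs without overlap, with rises from 1.07 for Ltbp1 to 2.15 for Myh11. They were picked among the called members with the smallest p of their lists, a choice that favours such separation. Of all genes tested, 22.5% lay above at 24 h without overlap.

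Genes of mitosis were mostly higher at 24 h, while those of DNA replication were divided. Of 46 genes of mitosis, 28 rose and 2 fell, with a median of 0.47 (0.43). Of 47 DNA replication genes, 23 rose and 12 fell, with a median of 0.25 (0.18), so that list was divided. That median was 0.14 without air 6 h replicate 3 and 0.39 after cyclic loess. The summed level of the replication list overlapped, at 7.76 to 8.00 at 6 h and 7.76 to 7.97 at 24 h. For the mitosis list the summed level was higher in every 24 h lung, at 7.08 to 7.39 and 7.48 to 7.74. Kif18b, a kinesin that shortens spindle microtubules, had levels of -2.99, -2.85, -3.12 and -2.80 at 6 h and -1.07, -1.40, -1.22 and -1.38 at 24 h, a rise of 1.67 ± 0.19 (adjusted p = 1.31e-06). Cdca8, a subunit of the chromosomal passenger complex, rose by 1.06 ± 0.13 with other probes at 0.68 and 0.89. Nek2, a kinase that separates centrosomes, rose by 0.97 ± 0.12, and Kif23, a kinesin of the cytokinetic bridge, by 0.83 ± 0.11. Chaf1a and E2f1, which assemble chromatin behind the fork and drive S phase genes, rose by 1.12 ± 0.10 and 0.96 ± 0.09. Pold2 and Fen1, which act in lagging strand synthesis, rose by 1.06 ± 0.10 and 0.97 ± 0.10. Yet Pcna, the sliding clamp, fell by 0.35 ± 0.09, though it was at -0.01 after quantile normalization.

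The 15 largest rises that passed the naming rule held several genes of nuclear structure and division. Lmnb1, the lamin of proliferating nuclei, had levels of -0.05, 0.01, -0.25 and -0.16 at 6 h and 2.06, 2.25, 2.00 and 2.06 at 24 h, a rise of 2.21 ± 0.15 (adjusted p = 2.31e-08). Ska3, a kinetochore protein, rose by 2.20 ± 0.18 and Iqgap3, a scaffold of dividing cells, by 2.11 ± 0.14. Others were Myh11, the guanine nucleotide exchange factor Net1 (2.15 ± 0.19), the GTPase Rab27a (2.06 ± 0.26), the histone variant Macroh2a2 (2.06 ± 0.32), the neurturin receptor Gfra2 (2.03 ± 0.22), Lrrc15 (2.03 ± 0.20), Angptl2 (2.03 ± 0.21), Aldh7a1 (1.98 ± 0.36), Magee1 (1.95 ± 0.25), Aebp1 (1.92 ± 0.13) and the calcium pump Atp2a1 (1.82 ± 0.19). Second probes gave 0.75 for Rab27a and -0.16 for Aldh7a1, and the 2 other probes of Angptl2 gave 0.58 and 1.82.

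Macrophage genes were the clearest immune group lower at 24 h. Of 35 macrophage and monocyte genes, 20 fell and 1 rose, with a median of -0.66 (-0.58 with the G+C trend removed), and of 26 bright members 19 fell. The median was -0.56 after quantile normalization and -0.35 after normexp and quantile normalization. The summed level of the list was 7.20 to 7.73 at 6 h and 6.58 to 6.66 at 24 h. Ctss, a lysosomal protease of antigen-presenting cells, had levels of 5.15, 4.69, 5.02 and 5.32 at 6 h and 3.16, 3.34, 3.23 and 3.08 at 24 h. It fell by 1.84 ± 0.16 (adjusted p = 8.87e-08), and every 24 h lung lay below every 6 h lung. Trem2, a lipid receptor of macrophages, fell by 1.13 ± 0.10, with a second probe at -0.55, and Mrc1, the mannose receptor, fell by 1.08 ± 0.11. Pf4, a chemokine of platelets and some macrophages, fell by 1.37 ± 0.13. Not every defining marker followed, since Csf1r, the macrophage growth factor receptor, rose by 0.28 ± 0.07 and C1qa, a complement subunit, stood at -0.03 ± 0.09.

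Chil3, a chitinase-like protein of alveolar macrophages and neutrophils, fell most among these. Its levels were 2.03, 1.58, 1.81 and 2.48 at 6 h and -0.76, -0.16, -0.31 and -0.29 at 24 h, and it fell by 2.35 ± 0.23 (adjusted p = 3.32e-07), or 5.12-fold. Of 39 cytokine and chemokine genes, 19 fell and 4 rose, with a median of -0.48 (-0.40) that was -0.30 after normexp and quantile normalization. Ccl9, a chemokine of myeloid cells, had levels of 0.44 to 1.07 at 6 h and -1.22 to -0.94 at 24 h and fell by 1.92 ± 0.17 (adjusted p = 9.84e-08). Il1b, the inflammatory interleukin 1 beta, fell by 1.37 ± 0.13, Csf2, the growth factor on which alveolar macrophages depend, by 1.53 ± 0.16, and Il33, an epithelial alarmin, by 1.01 ± 0.10. Of 27 neutrophil genes, 12 fell and 6 rose, with a median of -0.26 (-0.31) that was -0.50 without air 6 h replicate 2 and 0.02 with array weights. The formyl peptide receptors Fpr1 and Fpr2 fell by 1.47 ± 0.13 and 1.37 ± 0.16 and Clec4d, a myeloid lectin, by 1.01 ± 0.14, while Ngp, a granule protein of immature neutrophils, rose by 1.41 ± 0.20.

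Antigen presentation by MHC class II moved the other way. Of 19 genes of dendritic cells and MHC class II, 7 rose and none fell, with a median of 0.12 (0.13). That median was 0.51 with all probes averaged, 0.48 with array weights and 0.33 without air 24 h replicate 3. It was 0.02 with median scaling, 0.06 after normexp and quantile normalization and 0.10 after quantile normalization. Among 7 bright members, 5 rose and the median was 1.00. The 7 risen genes of the whole list were H2-Aa, H2-Ab1, H2-Eb1, H2-DMa, H2-DMb1, Cd74 and Ccr7. All but Ccr7 form, load or chaperone the class II molecule, and Ccr7 is the receptor that leads dendritic cells to lymph nodes. H2-Ab1 levels were 0.39, 0.45, 0.63 and 0.09 at 6 h and 2.03, 1.47, 1.61 and 1.64 at 24 h, a rise of 1.30 ± 0.18 (adjusted p = 1.46e-05), and its 3 other probes gave 1.26 to 1.59. H2-Aa rose by 1.25 ± 0.19 with a second probe at 0.98, H2-Eb1 by 1.10 ± 0.16 and Cd74, the invariant chain, by 1.00 ± 0.14. Ciita, the transcription factor that controls class II genes, did not pass, at 0.10 ± 0.25 (adjusted p = 0.761). Markers that define dendritic cell subsets, such as Xcr1 (0.06), Zbtb46 (-0.14) and Batf3 (0.08), were also not called, and Clec9a was well above background on no array of 6 h.

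Of 32 T and NK cell genes, 12 rose and 2 fell, with a median of 0.45, which was 0.25 with the G+C trend removed and 7 risen, and 0.13 after normexp and quantile normalization. Tcf7, a T cell transcription factor, rose from -0.73 to -0.47 at 6 h to -0.03 to 0.16 at 24 h, by 0.70 ± 0.08 (adjusted p = 1.17e-06). Lck, the kinase of the T cell receptor, rose by 1.00 ± 0.13 and Cd6, a T cell surface receptor, by 0.78 ± 0.15. The Cd6 call was lost with all probes averaged. Of 21 B cell genes, 2 rose and 6 fell, yet the median was 0.35, with most members dim. It was 0.12 with the G+C trend removed, and among the 6 bright members 4 fell and none rose, with a median of -0.55. Ms4a1, which encodes CD20, fell by 1.55 ± 0.22, Cd79b, a chain of the B cell receptor, by 0.75 ± 0.13 and Vpreb3, a pre-B cell protein, by 0.72 ± 0.10, whereas Ebf1, a B lineage factor also present in stromal cells, rose by 0.98 ± 0.15. Of 18 mast cell, basophil and eosinophil genes, 7 rose and 3 fell. Kit and Tpsb2, a receptor and a protease of mast cells, rose by 1.04 ± 0.13 and 1.22 ± 0.16, and Mcpt8, a basophil protease, fell by 1.96 ± 0.20.

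**Figure D3:**
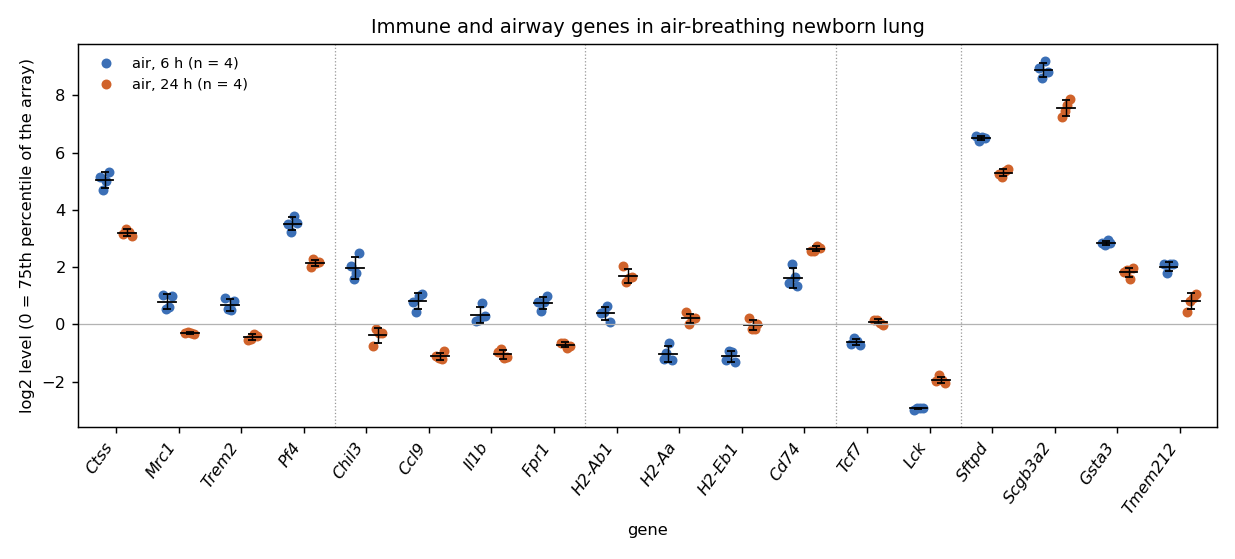
Log2 level of macrophage, neutrophil and cytokine, MHC class II, T cell and epithelial genes in each air lung at 6 h and 24 h (points), with the mean (bar) and SD (whisker) of 4 lungs. The class II and T cell genes lie higher at 24 h and the others lower, from a difference of -2.35 for Chil3 to 1.30 for H2-Ab1.

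The lung's own epithelium was expressed at both times. Sftpc, the surfactant protein that marks alveolar type II cells, had levels of 9.36 to 9.61 at 6 h and 9.03 to 9.18 at 24 h, a difference of -0.35 ± 0.10 that passed and was 0.00 after quantile normalization. Scgb1a1, the secretoglobin of club cells, had levels of 6.91 to 7.18 and 6.77 to 7.16 and was not called, at -0.13 ± 0.12 (adjusted p = 0.386). Of 24 alveolar type II genes, 8 rose and 12 fell, with a median of -0.22 that was -0.02 with the G+C trend removed and 0.04 after quantile normalization. Sftpd, a collectin that binds microbes, had levels of 6.56, 6.39, 6.55 and 6.49 at 6 h and 5.24, 5.16, 5.37 and 5.44 at 24 h, a difference of -1.20 ± 0.09 (adjusted p = 5.38e-08) that was -0.69 after quantile normalization. S100g, a calcium-binding protein, fell by 1.46 ± 0.14 and Pon3, a lactonase, by 1.06 ± 0.10. Sftpb, the surfactant protein needed for lamellar bodies, rose by 0.45 ± 0.12, a call lost with the G+C trend removed (0.18). Of 22 alveolar type I genes, 4 rose and 10 fell, with a median of -0.14. That median was -0.25 with the G+C trend removed and 0.16 after quantile normalization. Cav2 and Cav1, coat proteins of caveolae, fell by 0.99 ± 0.08 and 0.93 ± 0.08, and a second Cav1 probe gave 0.66. Akap5, a kinase anchor, fell by 0.92 ± 0.09.

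In the airways, 15 of 27 club cell genes fell and 1 rose, with a median of -0.36 (-0.47) that was -0.22 after quantile normalization and -0.18 after normexp and quantile normalization. Scgb3a2, a secretoglobin of the airway, had levels of 8.95, 8.61, 9.18 and 8.82 at 6 h and 7.23, 7.47, 7.66 and 7.87 at 24 h, a difference of -1.34 ± 0.16 (adjusted p = 1.94e-06) that was -0.56 after quantile normalization. Gsta3, a glutathione transferase, fell by 1.04 ± 0.11 with a second probe at -0.99, and Upk3a, a membrane protein of some club cells, by 0.86 ± 0.12. Of 34 ciliated cell genes, 15 fell and 5 rose, with a median of -0.26 (-0.26). Tmem212 and Dynlrb2, a membrane protein and a dynein light chain of cilia, fell by 1.21 ± 0.12 and 1.10 ± 0.11, and Cfap126 by 1.05 ± 0.10. Foxj1, the factor that specifies motile cilia, stood at -0.04 ± 0.12. Hydin, a protein of the ciliary central pair, fell by 2.98 ± 0.23, but its second probe gave 0.63. Of 16 goblet cell genes, 5 rose and 4 fell, with Galnt3, a mucin glycosylating enzyme, at -0.91 ± 0.09 and Clca1 at -1.06 ± 0.11. With all probes averaged Clca1 was no longer called. Of 19 neuroendocrine and basal cell genes, 2 rose and 6 fell, with Grp, the neuropeptide of neuroendocrine cells, lower by 0.99 ± 0.08.

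Besides Hydin and Chil3, the 15 largest falls that passed the naming rule were Plaat5 (-3.06 ± 0.77), the ubiquitin ligase Mid1 (-2.79 ± 0.24), Rec114 (-2.75 ± 0.29), Cst8 (-2.63 ± 0.21), the scavenger receptor Olr1 (-2.54 ± 0.21), Omd (-2.36 ± 0.60), Prl3b1 (-2.36 ± 0.57), Gpnmb (-2.34 ± 0.39), Crisp4 (-2.31 ± 0.65), Mdfi (-2.29 ± 0.13), Csta2 (-2.29 ± 0.33), Bcl2l14 (-2.18 ± 0.50) and Rtbdn (-2.18 ± 0.73). Rec114, Cst8, Prl3b1, Crisp4 and Rtbdn are known from testis, placenta, epididymis and retina rather than from lung. The 2 other Mid1 probes gave 0.29 and 0.69, and that of Bcl2l14 gave -0.17, whereas the second Mdfi probe gave -2.35. After normexp and quantile normalization Plaat5 was at -1.21 and Gpnmb at -0.63.

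Genes of the circadian clock moved singly rather than as a block. Of 13 genes of its negative limb and outputs, 7 rose and 2 fell, with a median of 0.51 (0.36), and it was 0.22 after normexp and quantile normalization. Of 6 of the positive limb, 2 rose and 2 fell, and of 9 kinases and turnover factors, 6 rose and none fell. The clock works through short DNA elements, the E-box CACGTG bound by CLOCK and ARNTL, the D-box forms TTATGTAA and TTACGTAA bound by DBP, HLF, TEF and NFIL3, and the element AGGTCA bound by ROR and NR1D receptors. Of 19 clock genes called, 14 matched the RefSeq promoter table (GRCm38.p6) with 18 windows from 250 bases before to 50 after a start. On either strand CACGTG lay in 3 of these windows and TTATGTAA in 2, TTACGTAA in none and AGGTCA in 4. In all 32851 windows of the table these letters were found in 7.15%, 0.938%, 0.119% and 16.3%, and the motifs do not overlap in the windows shown. The 250 bases before the start are shown for the called genes with an E-box and for Per3 with its pair of D-box matches, with matches in capitals.
Per1 (chr11:69098699-69098948, plus strand): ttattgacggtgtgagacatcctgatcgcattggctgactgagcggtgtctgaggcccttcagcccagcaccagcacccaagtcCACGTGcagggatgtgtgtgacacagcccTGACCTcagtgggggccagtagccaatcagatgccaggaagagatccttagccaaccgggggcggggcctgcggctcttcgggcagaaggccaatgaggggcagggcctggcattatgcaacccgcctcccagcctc
Cry1 (chr10:85185055-85185304, minus strand): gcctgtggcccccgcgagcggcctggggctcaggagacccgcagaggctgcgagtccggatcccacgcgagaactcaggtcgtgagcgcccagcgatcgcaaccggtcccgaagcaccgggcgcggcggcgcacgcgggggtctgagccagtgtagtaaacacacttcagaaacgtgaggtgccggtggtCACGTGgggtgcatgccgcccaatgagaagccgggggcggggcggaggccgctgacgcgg
Ciart (chr3:95882229-95882478, minus strand): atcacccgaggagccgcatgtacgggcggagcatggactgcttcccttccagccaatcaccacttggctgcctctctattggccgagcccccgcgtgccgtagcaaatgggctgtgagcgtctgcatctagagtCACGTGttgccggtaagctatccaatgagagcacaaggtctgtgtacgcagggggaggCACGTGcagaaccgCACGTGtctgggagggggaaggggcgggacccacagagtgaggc
Per3 (chr4:151044666-151044915, minus strand): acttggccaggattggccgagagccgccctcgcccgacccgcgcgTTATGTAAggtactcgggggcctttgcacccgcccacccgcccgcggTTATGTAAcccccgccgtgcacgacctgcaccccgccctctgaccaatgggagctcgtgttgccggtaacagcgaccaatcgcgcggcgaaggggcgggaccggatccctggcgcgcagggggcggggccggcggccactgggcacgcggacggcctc

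Per1 and Cry1, repressors with 1 E-box each in the windows shown, rose, while Ciart, a repressor with 3, fell. Per1 levels were -0.03, 0.32, 0.90 and 0.34 at 6 h and 1.53, 1.01, 1.84 and 2.63 at 24 h, a rise of 1.37 ± 0.35 (adjusted p = 0.00302) with no overlap between the times. Cry1 went from -3.55, -3.40, -3.73 and -3.14 to -2.38, -2.41, -2.31 and -2.74, by 1.00 ± 0.16 (adjusted p = 4.61e-05), but its second probe gave 0.01 and normexp with quantile normalization 0.43. Ciart went from -2.15, -1.85, -1.70 and -2.15 to -2.45, -2.70, -2.80 and -2.77, by -0.72 ± 0.18 (adjusted p = 0.00351), and with the G+C trend removed it was at -0.16 and no longer called. Per3 rose by 1.10 ± 0.21 (adjusted p = 0.000362) and Per2 was not called, at 0.23 ± 0.12 (adjusted p = 0.127). Cry2 rose by 0.51 ± 0.10, with a second probe at 1.00.

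Bhlhe40, a repressor that competes for E-boxes, had levels of -0.95, -0.89, -1.06 and -1.05 at 6 h and -0.22, 0.24, -0.10 and -0.08 at 24 h, and its rise of 0.95 ± 0.10 had the smallest p of the output genes (adjusted p = 7.44e-07). Hlf, an activator at D-boxes, rose by 0.92 ± 0.15, while its relatives Dbp and Tef were not called, at -0.20 ± 0.14 and 0.02 ± 0.09. Nr1d1, the receptor that represses Arntl, rose by 0.49 ± 0.19 (adjusted p = 0.0354), a call lost when air replicate 1 or 2 of 6 h (0.42 and 0.48) or air replicate 2 or 4 of 24 h (0.43 and 0.43) was left out, and with the G+C trend removed (0.28), normexp and quantile normalization (0.22) or median scaling (0.39). Its partner Nr1d2 fell by 0.40 ± 0.12 and was at -0.17 with the G+C trend removed, no longer called. Bhlhe41 (0.57 ± 0.52) was not called.

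In the positive limb Clock fell and Arntl rose. Clock levels were 1.26, 1.10, 1.27 and 1.25 at 6 h and 0.30, 0.30, 0.25 and 0.18 at 24 h, a difference of -0.96 ± 0.07 (adjusted p = 2.09e-08) that its 3 dimmer probes gave as -0.37 to -0.12. Arntl rose by 0.46 ± 0.14 (adjusted p = 0.0126), which was lost with the G+C trend removed (0.35) and with median scaling. Rora, an activator of Arntl, rose by 0.77 ± 0.11 (adjusted p = 1.08e-05), with other probes at 0.69 to 1.14. Npas2 (0.61 ± 0.40), a stand-in for CLOCK, was not called and was well above background on 2 of 4 arrays at 6 h. Nfil3 (0.05 ± 0.13), a repressor at D-boxes, was not called, though its dimmer probe gave 0.99.

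Among kinases and turnover factors, Btrc, which tags PER proteins for destruction, rose by 1.35 ± 0.18 (adjusted p = 5.78e-06) and Usp2, a deubiquitinase with a strong daily rhythm, by 1.02 ± 0.12, with a second probe at 0.78. The Usp2 call was lost with all probes averaged. Gsk3b, a kinase of clock proteins, rose by 1.02 ± 0.18, with a second probe at 1.18, and Wee1, a mitotic kinase under clock control, by 1.14 ± 0.34. Timeless rose by 0.23 ± 0.09, near the threshold (adjusted p = 0.0499). Csnk1d (0.09 ± 0.10) and Csnk1e (-0.16 ± 0.09), kinases that mark PER proteins, were not called by their brightest probes, while their dimmer ones gave 0.86 to 1.12 and 1.62. Fbxl21 (-0.07 ± 0.46) was not called.

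**Figure D4:**
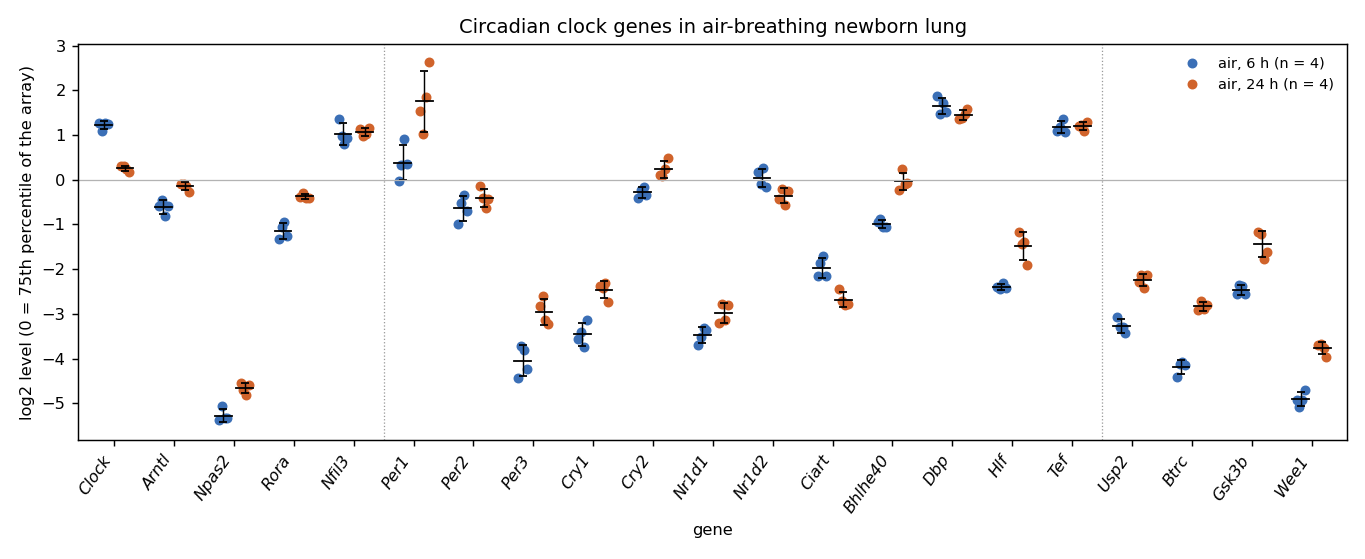
Log2 level of circadian clock genes in each air lung at 6 h and 24 h (points), with the mean (bar) and SD (whisker) of 4 lungs; dotted lines part the positive limb, the negative limb and outputs, and kinases and turnover factors. Per1, Bhlhe40, Hlf and Rora lie higher at 24 h, Clock and Ciart lower, and Dbp, Tef, Per2 and Nfil3 overlap.

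Genes that respond within the hour to stimuli or to glucocorticoid were split in the same way. Of 26 immediate early genes, 9 rose and 7 fell, with a median of 0.23 (0.22) that ranged from 0.13 with median scaling to 0.38 after cyclic loess. Egr1, a zinc finger factor, had levels of -0.11, 0.16, 0.34 and -0.17 at 6 h and 1.96, 1.63, 1.99 and 1.33 at 24 h, a rise of 1.67 ± 0.18 (adjusted p = 1.06e-06). Fos, a subunit of AP-1, rose by 1.63 ± 0.22 and Zfp36, which destabilizes cytokine mRNAs, by 1.51 ± 0.15. Gadd45b, a stress sensor, fell by 1.33 ± 0.12, with a second probe at -0.70. Of 24 glucocorticoid-responsive genes, 8 rose and 8 fell, with a median of -0.11. That median ranged from -0.24 with array weights to 0.22 with all probes averaged. Of the 10 members with other probes, only 1 had all its probes of the same sign. Crispld2 and Klf9, both direct targets of the receptor, rose by 1.58 ± 0.15 and 0.94 ± 0.17. The metallothionein Mt2 fell by 1.28 ± 0.17 and Hsd11b1, which regenerates active glucocorticoid, by 0.60 ± 0.12. Tsc22d3 and Fkbp5, classic targets of the same receptor, were not called, at 0.28 and -0.12. Fkbp5 in 24 h replicate 4 stood 2.05 above the median of the other 3 lungs, and without that lung its difference was -0.66 ± 0.32 (adjusted p = 0.11 in limma).

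Of 50 ribosomal protein genes 44 fell and none rose, with a median of -0.80, but this group depended on how arrays were scaled. After quantile normalization the median was -0.19, with 25 fallen and 8 risen, and all 50 members were bright. Rpl30 had levels of 6.33, 6.04, 6.60 and 6.45 at 6 h and 4.84, 4.86, 4.79 and 5.03 at 24 h, a difference of -1.48 ± 0.11 (adjusted p = 3.34e-08) that was -1.04 after quantile normalization. Its second probe gave -1.21. Rps28, Rps7 and Rpl27, parts of the small and the large subunit, fell, at -1.33 ± 0.11, -1.33 ± 0.11 and -1.24 ± 0.11, which were -0.68, -0.72 and -0.61 after quantile normalization.

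Redox and metabolic lists held members that moved in opposite directions. Of 34 NRF2 target and antioxidant genes, 5 rose and 14 fell, with a median of 0.02. That median was -0.17 with the G+C trend removed and 0.18 with all probes averaged. Txn1, thioredoxin, fell from 5.05 to 5.33 at 6 h to 3.85 to 4.08 at 24 h (adjusted p = 2.82e-08), and the peroxiredoxins Prdx3 and Prdx1, which it reduces, fell by 1.04 ± 0.08 and 0.90 ± 0.11. Ucp2, an uncoupling protein of mitochondria, rose by 1.42 ± 0.11 (adjusted p = 3.49e-08) and Cpt1a, which admits fatty acids to mitochondria, by 0.84 ± 0.08, while Oxct1 and Etfdh, enzymes of ketone and fatty acid burning, fell by 0.80 ± 0.10 and 0.94 ± 0.12 with second probes of the opposite sign. Of 20 genes of fatty acid oxidation and ketone bodies 6 rose and 9 fell. Of 29 genes of fatty acid synthesis and storage 12 rose and 7 fell, among them Scd1, a desaturase, and Acly, which makes cytosolic acetyl-CoA, which rose by 0.94 ± 0.15 and 0.82 ± 0.13. The Acly call was lost with all probes averaged. Of 24 genes of cholesterol synthesis 8 rose and 6 fell, Mvk and Mvd rising by 0.73 ± 0.11 and 0.58 ± 0.10 and Msmo1 and Idi1 falling by 1.03 ± 0.10 and 1.01 ± 0.12. Of 30 hypoxia and glycolysis genes 6 rose and 8 fell, with Pfkl, a phosphofructokinase, higher by 1.08 ± 0.09 and Pdk1, a brake on pyruvate oxidation, lower by 1.08 ± 0.14.

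Chaperone lists were also divided. Of 22 heat shock genes 8 rose and 6 fell, with Hsp90ab1 at 0.80 ± 0.09 and Hspe1, the mitochondrial co-chaperonin, at -1.11 ± 0.13. Of 25 genes of endoplasmic reticulum folding 5 rose and 3 fell, with Calr at 0.97 ± 0.08. Of 29 genes of the IGF axis and imprinted growth 11 rose and 8 fell. Igfbp4, which binds IGFs, rose by 0.80 ± 0.08, and Igf2bp2, an RNA-binding protein, and Hmga2, a chromatin protein of growing tissues, fell by 0.60 ± 0.07 and 0.77 ± 0.10, though Hmga2 probes ranged from -2.19 to 0.10. Of 40 interferon-stimulated genes 3 rose and 15 fell, with a median of -0.30 (-0.27). Tap1, a peptide transporter of antigen presentation, rose by 1.60 ± 0.18 and Irf7 by 0.79 ± 0.15, while the GTPase Iigp1 fell by 1.04 ± 0.23. Of 27 acute phase genes 7 rose and 8 fell, with Il4ra higher by 0.85 ± 0.09 and Osmr lower by 0.40 ± 0.08. Osmr was no longer called with all probes averaged.

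Blood and neighbouring tissues were checked by their markers. Of 32 erythroid genes 15 fell and 3 rose, with a median of -0.42 (-0.40), and Hbb-b1, an adult beta globin, had levels of 8.45, 8.66, 8.85 and 8.76 at 6 h and 7.21, 8.11, 7.16 and 7.43 at 24 h. It fell by 1.21 ± 0.19, which was -0.52 after quantile normalization, and near-identical globin genes may share the probe. The summed erythroid level was 9.35 to 9.61 at 6 h and 8.35 to 9.40 at 24 h. Of 17 platelet genes 4 rose and 9 fell. Of 26 heart muscle genes 3 rose and 10 fell, with Myh6, a myosin heavy chain of heart muscle, higher by 1.42 ± 0.19 and Smpx lower by 1.16 ± 0.16. Of 22 skeletal muscle genes 5 rose and 1 fell, and the summed level overlapped, at 4.58 to 6.00 and 4.62 to 5.93. Of 14 mesothelial genes 6 fell and 1 rose, with Msln lower by 1.20 ± 0.14. Of 13 fat genes 2 fell, Fabp3 and Ppargc1a, and of 14 squamous epithelial genes 5 fell. Of 13 liver genes 1 rose and 1 fell, and of 8 genes of thyroid, parathyroid and thymus epithelium 2 rose and 1 fell. Summed levels of heart muscle genes overlapped, at 7.27 to 8.00 at 6 h and 7.02 to 7.32 at 24 h. Those of mesothelial genes, at 6.81 to 7.40 and 6.35 to 6.75, of fat genes, at 4.25 to 5.39 and 3.56 to 3.87, and of squamous epithelial genes, at 6.87 to 7.11 and 6.25 to 6.40, were lower in every 24 h lung than in every 6 h lung. The summed level of thyroid, parathyroid and thymus epithelium was lower too, at 0.25 to 0.92 and -0.37 to -0.12. A summed level adds signals on a linear scale, so bright members weigh most. In the thyroid, parathyroid and thymus list only 1 of 8 members was bright, and its difference was -0.83. In the squamous list 3 of 14 were bright, and all 3 fell. The part of blood or any of these tissues in the results above was not tested.

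**Figure D5:**
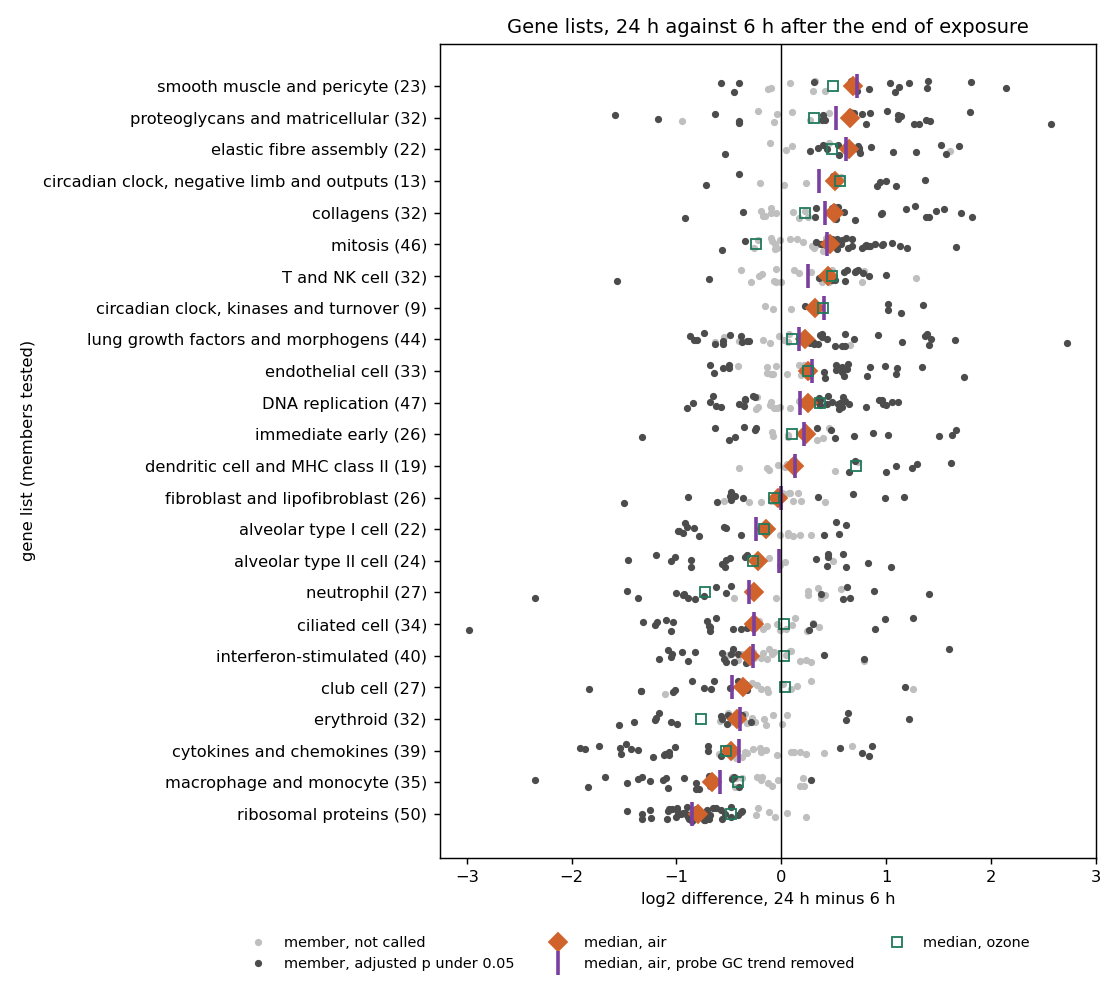
Log2 difference, 24 h minus 6 h, of each tested member of 24 gene lists in the air lungs (small points, dark where the adjusted p was under 0.05), with the list median in air (diamond), in air after removal of the G+C trend (bar) and in the ozone lungs (open square). Ribosomal and macrophage genes lie lowest, with medians of -0.80 and -0.66, and matrix and smooth muscle genes highest, up to 0.69.

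The ozone lungs, other animals on the same 4 slides and scan days, gave a time difference of their own, in which 9956 genes passed (46%), with 18.9% risen and 27.1% fallen. Of the genes that rose in air, 72.0% also rose in ozone, and these were 81.3% of the ozone rises. Of the genes that fell in air, 78.0% fell in ozone, and these were 81.4% of the ozone falls. The direct test of the difference between the time differences passed for 14 genes (0.0647%), 10 with the higher value in ozone (0.0462%) and 4 with the higher in air (0.0185%). That count depended on single lungs, since limma gave 0 without air 6 h replicate 4, air 24 h replicate 1 or ozone 24 h replicate 2 and 275 without air 6 h replicate 2. With the replicate block it gave 5, and with the Xist level as a covariate for sex it gave 10. At an unadjusted p under 0.05 the fits with 0 held 2111, 2089 and 2357 genes. Ms4a7, a membrane protein of macrophages, fell by 0.95 ± 0.10 in air and stood at 0.01 in ozone (difference 0.95, adjusted p = 0.0228). Pifo and Mdh1b, both found in ciliated cells, fell by 0.68 and 0.91 in air and stood at 0.18 and -0.05 in ozone. Prnd fell by 0.48 in air and rose by 0.50 in ozone, and Batf3 stood at 0.08 in air and rose by 0.95 in ozone.

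In the other direction, Ccnf, a cyclin F-box protein, had levels of -2.20, -2.17, -2.20 and -2.19 at 6 h and -0.83, -0.99, -0.88 and -1.07 at 24 h in air, a rise of 1.25 ± 0.13, and stood at 0.15 in ozone (difference -1.09, adjusted p = 0.0358). Gdpd2 rose by 1.02 in air and fell by 0.69 in ozone, Lrg1, an acute phase glycoprotein, rose by 0.62 in air and stood at -0.17 in ozone, and Col25a1 stood at 0.00 in air and fell by 1.23 in ozone. For the mitosis list the median was 0.47 in air and -0.24 in ozone, where 3 members rose and 15 fell, but no member passed the test of the difference. Kif18b, the member with the smallest p in air, rose by 0.50 in ozone (difference -1.17, adjusted p = 0.095). For matrix and contractile genes the ozone medians were 0.48, 0.23, 0.31 and 0.49, in the order elastic fibre, collagens, proteoglycans and smooth muscle, and no member of these lists passed that test; Col25a1 is not on the collagen list. Ozone medians were -0.42 for macrophage genes, 0.72 for MHC class II and dendritic cell genes, where Batf3 alone passed it, and 0.56 for clock outputs, where none passed.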

How the data were processed

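RNA from 16 whole newborn lungs, 1 per array, was hybridised to single-colour Agilent arrays. Per the file headers, the deposited spot intensity was extracted with Agilent Feature Extraction, version 10.7.1.1, background-subtracted on a linear scale, with other deposited columns holding flags of 0 or 1 per spot and probe positions on mm9. The submitters' processing notes name the same software. The authors' deposited value table holds log2 values whose 6 h and 24 h arrays had medians of 6.41 and 6.73. It was used only as an alternative, and its scaling and centring are not given in the sources used here.

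Spots flagged as controls or as uneven were left out and those of a probe averaged. Log2 intensity minus the 75th percentile of its array was used. Of 41174 probes, 32357 were well above background on at least 4 of 16 arrays, and the brightest probe of each gene gave 21644 genes. Symbols were updated by accession where the RefSeq gene table held it. limma 3.58.1 in R 4.3.3 fitted 1 mean per group to all 16 arrays, with slide as a random block (correlation 0.013), and p-values were Benjamini-Hochberg adjusted over all genes. SEs are limma's. The p-values reflect the spread between 4 lungs per group, pooled over all groups with the ozone lungs included, and the small number of arrays limits precision. Each time was a single experiment, so they hold no spread between experiments. Fitted to the air arrays alone, the slide correlation was 0.164. In simulated data for this contrast over 21644 genes, limma called 47% of genes given a 1.5-fold shift and 78% of genes given a 2-fold shift, and 3.1% of its calls were false. Few genes were shifted there, whereas 49.6% of genes passed in the data. No litter, scan day or labelling difference between the times was put in. These shares therefore do not give the power or the false share of the calls above.

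The members, the gene lists and the motifs were chosen with earlier results of these data known. Genes named were the 15 largest rises and falls without overlap and well above background on all 8 air arrays, the measured clock genes, up to 4 called members of each list with the smallest p, and the 5 largest called differences per direction between ozone and air. Named outside that rule, after their values were seen, were Efemp1, Col4a4, Col4a5, Lama1, Lum, Dcn, Has2, Hapln1, Postn, Acta2, Tagln, Kcnj8, Gucy1b1, Emcn, Sox17, Cd34, Lyve1, Prox1, Pcna, Csf1r, C1qa, Ngp, H2-DMa, H2-DMb1, Ccr7, Ciita, Xcr1, Zbtb46, Clec9a, Sftpc, Scgb1a1, Sftpb, Foxj1, Fkbp5 and Tsc22d3. Array probe positions are on mm9 and promoters on GRCm38.p6, and the builds were not mixed. Some genes that the naming rule selects are not reported here.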

Additional observations from a re-analysis of the deposited data

Results flagged for a closer look

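Spike-in control spots, which no comparison used, had a median of the mean log10 signal of 3.07 on the air arrays of 6 h. Air replicate 4 of 24 h had 81.9% of these spots well above background, against 24.7% to 31.3% on the other 3 arrays of its group.

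Among 436 groups of 4 air lungs, for 218 genes named, 28 had 1 lung apart from the other 3, and chance flags about 1 in 20 groups. Differences are from the median of the other 3, in log2 units. In 24 h replicate 4, Fkbp5 was higher by 2.05 and Batf3 by 0.27, and Col12a1 stood at -0.44. In 24 h replicate 3, Iigp1 was higher by 0.55, Fn1 by 0.29, Pold2 by 0.18 and Cpt1a by 0.09, with Fbn2 at -0.37 and Txn1 at -0.23. In 24 h replicate 2, Col4a2 stood at -0.37 and Matn4 at -0.12. In 24 h replicate 1, Sox17 was higher by 0.36 and Lama2 by 0.05, with Vpreb3 at -0.34 and Mdh1b at -0.35. In 6 h replicate 3, Mid1 was higher by 1.08, S100g by 0.41 and Sftpc by 0.21, with Nek2 at -0.43 and Fen1 at -0.46. In 6 h replicate 2, Rab27a was higher by 0.50, Smtn by 0.31 and Zbtb46 by 0.28, with Tmem212 at -0.32, Txn1 at -0.24 and Clock at -0.17. In 6 h replicate 1, Vpreb3 was higher by 0.26, and Clec9a, which was not well above background there, stood at -1.32.

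For 14 genes the time difference in ozone differed from that in air by the interaction test in limma. Ozone minus air was 0.99 for Prnd, 0.95 for Ms4a7, 0.87 for Batf3, 0.86 for Pifo, 0.86 for Mdh1b, 0.85 for Ddc, 0.84 for Vpreb3, 0.81 for Lrmda, 0.72 for Ociad2 and 0.69 for Nme9. It was -1.72 for Gdpd2, -1.23 for Col25a1, -1.09 for Ccnf and -0.79 for Lrg1.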

How the results depend on the processing

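Leaving out 1 array at a time, the genes that changed between the times in air numbered 9887 to 11475 (4108 to 5241 risen, 5665 to 6234 fallen) and in ozone 8862 to 10523. Over the other alternatives they numbered 9074 to 12911 in air and 7478 to 13759 in ozone. Only scaling to the array median moved the air rises by over 1.5 times, to 2963, when 32.7% of calls were rises against 42.9%. The 14 genes whose time difference differed between ozone and air became 40 after quantile normalization, 66 after cyclic loess (chosen after seeing the data), 23 with the percentile over detected probes, 426 with array weights, 3 with median scaling and 5 with the replicate block. With an array left out they ranged from 0 to 275. The count was 275 without air 6 h replicate 2, 0 without air 6 h replicate 4, air 24 h replicate 1 or ozone 24 h replicate 2, and 1 without air 24 h replicate 2 or ozone 24 h replicate 1. At an unadjusted p under 0.05 in limma the 3 fits with 0 held 2111, 2089 and 2357 genes. Same-numbered arrays had correlations of -0.18 to 0.05, so the numbers do not pair the lungs. Of 218 genes named by rule that were called, 213 kept the call after quantile normalization, 209 with normexp, 207 with the G+C trend removed, 199 with all probes averaged and 217 with the replicate block. Sbsn, a squamous epithelial gene, reversed to 0.15 when probes were averaged; the cause was not tested. Probes near background limit what can be said of dim genes.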
